A study of Mus musculus and unidentified plasmid with 60 samples.

Results

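The regions described here are those bound by a dominant-negative RFX protein around 4 mouse ciliary genes, Foxj1, Ift172, Dync2li1 and Bbs4. They were taken by position, as every listed region that overlaps a window drawn around each gene in the mm9 genome. The genes and windows themselves were chosen with earlier results of these data known. The windows run from 116175000 to 116215000 on chromosome 11 for Foxj1, from 31540000 to 31610000 on chromosome 5 for Ift172, from 85005000 to 85075000 on chromosome 17 for Dync2li1 and from 59150000 to 59220000 on chromosome 9 for Bbs4. Together they span 250 kb and hold 27 of the 173231 regions listed for silenced neurons, 20 of the 122135 listed after depolarization and 0 of the 43 listed for the group titled WT, or 47 regions of 295409 in all.

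The regions come from ChIP-seq of cortical neurons cultured from E16 embryos of the CD-1 mouse strain, in 2 libraries per group, labelled DIV7 (days in vitro). In the RFX-DN (dominant-negative RFX) groups, a lentivirus carrying the construct was added on DIV 2, tetrodotoxin and an NMDA receptor antagonist silenced the cultures overnight from DIV 6, and binding was mapped on DIV 7 through an antibody to the MYC tag, after 0 h or 1 h in 55 mM KCl. The WT group carries no treatment label, and whether its neurons received the construct is unclear, since the shared protocol text describes transduction. Binding of a transduced, tagged construct was measured, so the lists do not show where the native RFX proteins sat.

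RFX proteins are winged-helix transcription factors that bind the X-box, an imperfect inverted repeat made of a GTTGCC-like half-site, a short spacer and its mirror image. They are best known as conserved activators of ciliary genes, whose promoters often carry an X-box close to the start site, and neurons carry a primary cilium. Foxj1 is a forkhead transcription factor that drives the motile cilium programme and acts together with RFX factors. Ift172 is a subunit of the IFT-B train that carries cargo towards the ciliary tip. Dync2li1 is the light intermediate chain of dynein-2, the motor of the return trip. Bbs4 is a subunit of the BBSome, which moves membrane proteins in and out of the cilium.

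Promoter sequences from RefSeq are shown for Ift172 and Bbs4, because the X-box is the sequence that RFX proteins bind. Of the 4 genes, only these 2 had a promoter in the set used, so the promoters of Foxj1 and Dync2li1 were not searched. The promoters are from build GRCm38.p6 and run from 250 bases before to 50 after a start site. Capitals mark the match to the half-site GTTGCC in Ift172 and to the full X-box, searched as GTNNCC, 1 to 3 bases of any kind and GGNNAC, in Bbs4. Both motifs were searched on both strands, and every GTTGCC is also a GTNNCC.

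Ift172: tgtcgcactcacGTTGCCtgtgcgtcagcg
Bbs4: ctcagctgGTCGCCCGGGAAACggtcggct

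The Ift172 stretch lies at chr5:31291097-31291126 and the Bbs4 stretch at chr9:59353464-59353493, both on the minus strand of GRCm38.p6. These positions cannot be set against the mm9 positions of the regions. The Ift172 match covers the first 6 transcribed bases of that table's start site, and the Bbs4 match covers bases 24 to 37 after it. The X-box pattern as searched is its own reverse complement, so any match to it, here that of Bbs4, reads as an X-box on either strand. Bbs4 had no GTTGCC and Ift172 had no full X-box in these windows of 300 bases. Over 27025 genes with a promoter in the table, 14.1% held GTTGCC and 4.004% a full X-box in at least 1 promoter window.

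The same search was run on a list of 47 genes, of which 39 had a promoter. It joined genes of the IFT trains, the BBSome and its partners and dynein-2 with 10 transcription factor genes. Among these 10 were Rfx1 to Rfx7, listed as members of the RFX family and not for a ciliary role of each. GTTGCC was found in 17 of the 39 (43.6%) and a full X-box in 8 (20.5%). Without the 4 genes the numbers were 16 of 37 (43.2%) and 7 of 37 (18.9%). Among the genes with a full X-box were, in alphabetical order, Bbs1, Bbs4, Bbs7 and Ift22. By group, GTTGCC was found in 6 of 12 IFT-B genes, 2 of 5 IFT-A genes, 3 of 12 genes of the BBSome and its partners, the 1 dynein-2 gene with a promoter and 5 of 9 transcription factor genes. A match is a run of letters and not a measured binding site, and the effect of base composition on these shares was not tested.

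The main comparison set binding around the ciliary genes in silenced neurons against that after 1 h of depolarization. The widest region of every window was listed at both times, with a centre in both replicate columns of both lists and at nearly the same position. Each list gives 2 columns of peak centres, read as the 2 libraries, and a region may hold a centre in 1 or both. What was absent after depolarization was narrow. All 12 of the 0 h regions of 300 bases or wider were met by a 1 h region, while 6 of the 15 under 300 bases were met and 9 were not. These 12 all had a centre in both columns, and 98.7% of such wide regions in the whole 0 h list were met too. Of regions under 300 bases in the whole 0 h list, 54.2% were met.

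**Figure D1:**
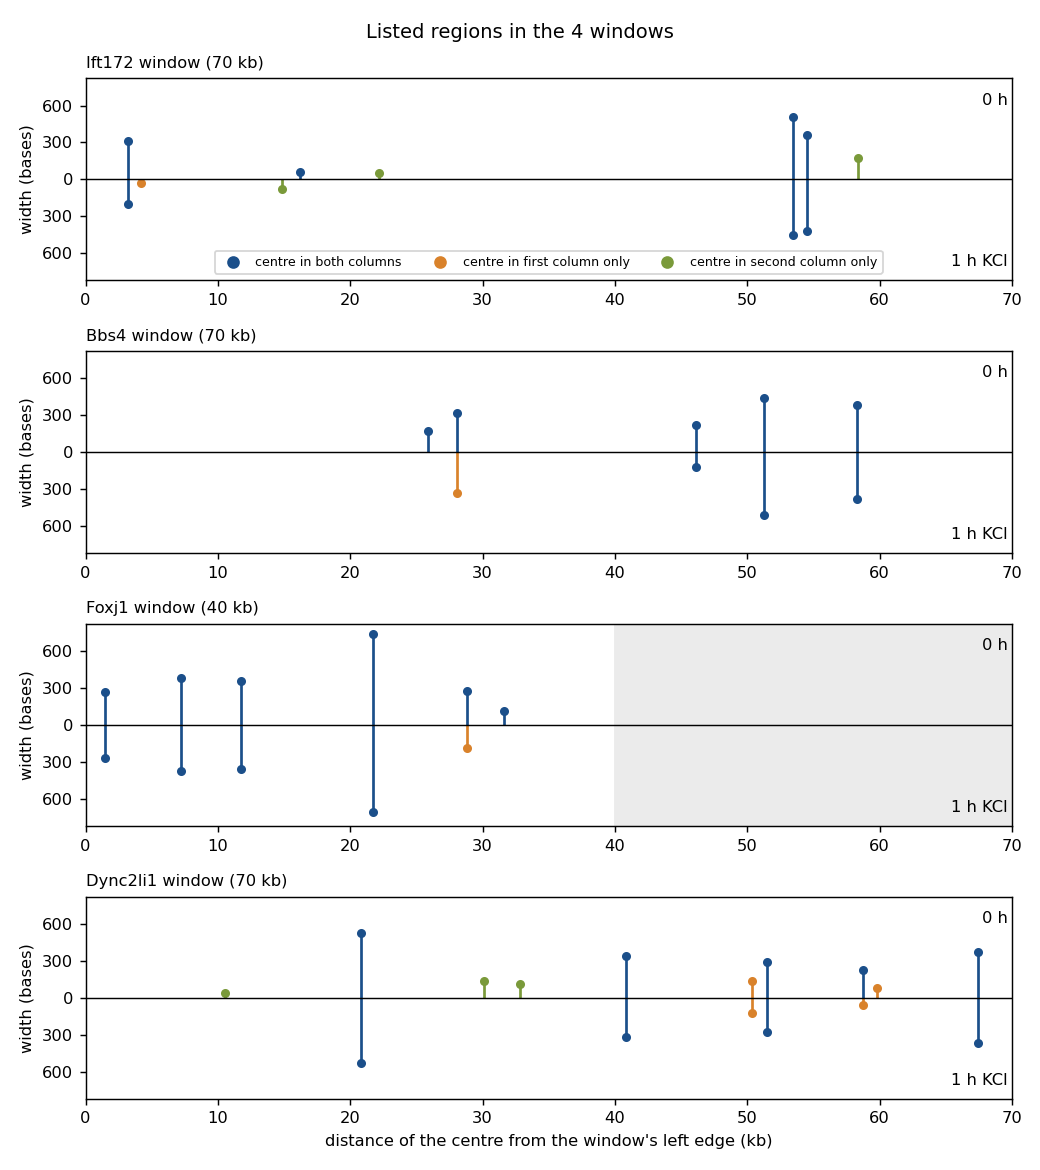
Each stem is a listed region, placed by the distance of its centre from the window's left edge (kb), with its width in bases upward for 0 h and downward for 1 h in KCl; colours show which replicate columns held a centre, and the grey area lies outside the Foxj1 window. The tall stems stand opposite each other at both times, up to 740 bases at 0 h and 710 bases at 1 h in the Foxj1 window, while stems without a partner are 170 bases or shorter.

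The Foxj1 window, of 40 kb, held 6 regions at 0 h and 5 at 1 h. Its widest region measured 740 bases at 0 h (116196540 to 116197280) and 710 bases at 1 h (116196540 to 116197250). It was the widest of all regions in the 4 windows at either time, with 98.3% of its list narrower at 0 h and 98.4% at 1 h. Its centres lay at 116196730 and 116196740 at 0 h and at 116196730 in both columns at 1 h. The left bound was the same in both lists, and the 4 centres lay within 10 bases of each other.

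To the left of it, 3 more regions kept centres in both columns at both times. They measured 270 bases at both times (116176360 to 116176630), 380 and 370 bases (116182050 to 116182430 at 0 h) and 360 bases at both times (116186570 to 116186930 at 0 h). The 2 regions to the right were weaker in support at 1 h. The region from 116203680 to 116203960 measured 280 bases with 2 centres at 0 h, and 190 bases with a first-column centre only at 1 h. The region from 116206540 to 116206650, of 110 bases, was found in both columns at 0 h and was not listed at 1 h. All 6 regions of this window had 2 centres at 0 h, and 4 of 5 did at 1 h.

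The Ift172 window, of 70 kb, held 6 regions at 0 h and 5 at 1 h, of which 3 were shared. A pair of wide regions, separated by 550 bases at either time, stood in its right part. The left one measured 510 bases at 0 h (31593260 to 31593770) and 450 bases at 1 h (31593270 to 31593720). The right one measured 360 bases at 0 h (31594320 to 31594680) and 420 bases at 1 h (31594270 to 31594690). At 1 h the left region was thus 60 bases narrower and the right region 60 bases wider. The lists give 1 width for both libraries together, so a difference of this size cannot be read against any spread.

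The third shared region of this window measured 310 bases at 0 h (31543050 to 31543360) and 200 bases at 1 h (31543160 to 31543360), with the same right bound and centres in both columns at both times. The remaining regions of this window were narrow. At 0 h they were a region of 60 bases with both centres (31556190 to 31556250) and regions of 50 and 170 bases with a second-column centre only. At 1 h they were regions of 30 bases (31544220 to 31544250, first column only) and 80 bases (31554780 to 31554860, second column only). These 2 were the only regions of the 4 windows listed at 1 h and not at 0 h, and neither was found in both columns.

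The Dync2li1 window, of 70 kb, held the most regions, 10 at 0 h and 6 at 1 h, and all 6 at 1 h had a 0 h counterpart. Its widest region measured 530 bases at both times (85025510 to 85026040 at 0 h, 85025500 to 85026030 at 1 h). All 4 of its centres stood at 85025800. The region from 85072250 to 85072620 was listed with identical bounds at both times (370 bases). Regions of 340 bases (85045650 to 85045990) and 290 bases (85056370 to 85056660) at 0 h measured 320 and 280 bases at 1 h. These 4 regions had centres in both columns at both times.

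The remaining 6 regions of the Dync2li1 window were weaker in support. The region from 85063610 to 85063840 showed the largest contrast in width among the shared regions of the 4 windows, with 230 bases and 2 centres at 0 h and 60 bases and a first-column centre only at 1 h. A region of 140 bases at 0 h and 120 bases at 1 h (85055280 to 85055420 at 0 h) had a first-column centre only at both times, and was named after its values were seen. The other 4 were listed at 0 h alone, with widths of 40, 140, 110 and 80 bases, and each had a single centre, 3 in the second column and 1 in the first.

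The Bbs4 window, of 70 kb, held 5 regions at 0 h and 4 at 1 h, and all 4 at 1 h had a 0 h counterpart. Its widest region measured 440 bases at 0 h (59201120 to 59201560) and 510 bases at 1 h (59201110 to 59201620), with centres at 59201280 and 59201290 in both lists. The region from 59208140 to 59208520 had identical bounds at both times (380 bases) and 2 centres in each list. The region from 59196060 to 59196280 measured 220 bases at 0 h and 120 bases at 1 h, with 2 centres at both times.

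A further Bbs4 region held its width but not its second centre. It measured 320 bases with both centres at 59178070 at 0 h, and 330 bases with 1 centre, also at 59178070, at 1 h. Of the 55225 regions with a single centre in the 1 h list, 1.89% were as wide or wider. The only Bbs4 region absent at 1 h ran from 59175750 to 59175920 (170 bases) and had 2 centres at 0 h.

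Over the 4 windows, the share of regions met at the other time was close to that of the whole lists. At 0 h, 18 of 27 regions overlapped a 1 h region by at least 1 base (66.7%, 95% exact Clopper-Pearson interval 46.0% to 83.5%), beside 65.4% of all 0 h regions. By window these were 5 of 6 for Foxj1, 3 of 6 for Ift172, 6 of 10 for Dync2li1 and 4 of 5 for Bbs4. At 1 h, 18 of 20 overlapped a 0 h region (90.0%, interval 68.3% to 98.8%), beside 93.3% of all 1 h regions. These intervals cover counting error only, and neighbouring regions of 1 library are not replicates of a condition. At this overlap neither share sets the ciliary genes apart from the rest of the lists.

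**Figure D2:**
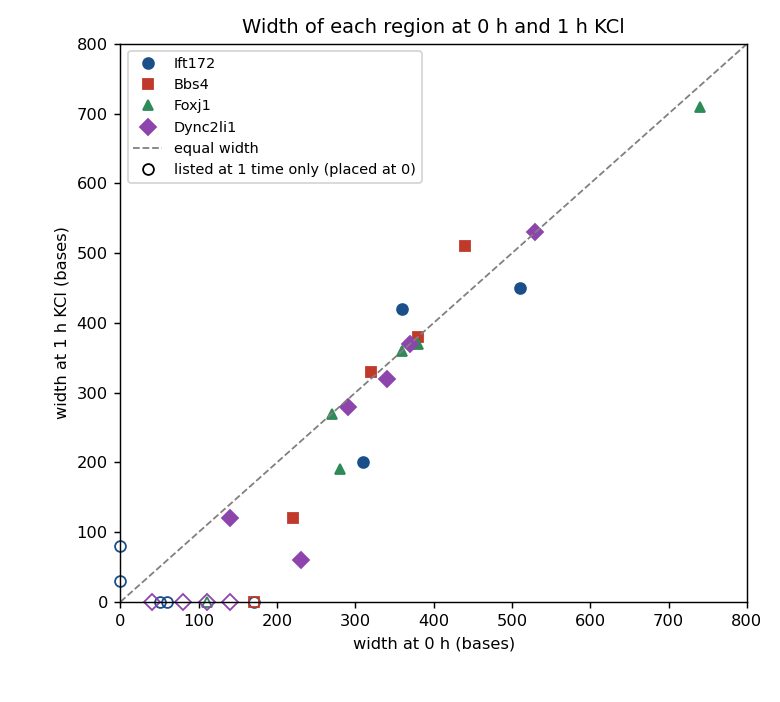
Each point is a region of the 4 windows, with its width in bases at 0 h on the x axis and at 1 h in KCl on the y axis, marked by window; open points on an axis were listed at 1 time only, and the dashed line marks equal width. Regions of 300 bases or wider at 0 h lie within 70 bases of the line except the Ift172 region at 310 and 200 bases, and all open points lie at 170 bases or less.

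Width and column support went with presence at 1 h in the windows, and in the whole lists too. Regions met at 1 h had a median width of 350 bases at 0 h, from 140 to 740 bases (n = 18), and those not met a median of 110 bases, from 40 to 170 bases (n = 9). The medians over the whole 0 h list were 260 and 100 bases. Of the 20 regions with 2 centres at 0 h, 17 were met (85.0%), beside 84.9% in the whole list, and of the 7 with a single centre, 1 was met (14.3%), beside 34.8%. In the other direction, all 14 of the 1 h regions with 2 centres had been listed at 0 h, beside 99.6%, and 4 of the 6 with a single centre, beside 85.7%. Among regions with 2 centres, all 12 of at least 300 bases were met, beside 98.7%, and 5 of 8 narrower ones were met, beside 75.6%. The 3 regions with 2 centres that were not met had widths of 60, 110 and 170 bases and stood in the Ift172, Foxj1 and Bbs4 windows.

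The regions around the ciliary genes held 2 centres in 20 of 27 cases at 0 h (74.1%, interval 53.7% to 88.9%), beside 61% of the whole list, and in 14 of 20 cases at 1 h (70%, interval 45.7% to 88.1%), beside 54.8%. Both whole-list shares of regions with 2 centres lie inside these intervals. At 0 h, 12 of 27 regions were at least 300 bases wide (44.4%, interval 25.5% to 64.7%), beside 25.4% of the list, and at 1 h 11 of 20 were (55.0%, interval 31.5% to 76.9%), beside 26.8%. Both whole-list shares of wide regions lie below these intervals, narrowly so at 0 h, but the intervals cover counting error only. The median width was 280 bases at 0 h and 325 bases at 1 h, beside 200 and 210 bases in the lists. The limit of 300 bases is the upper quartile of both lists and was set after the widths were seen.

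**Figure D3:**
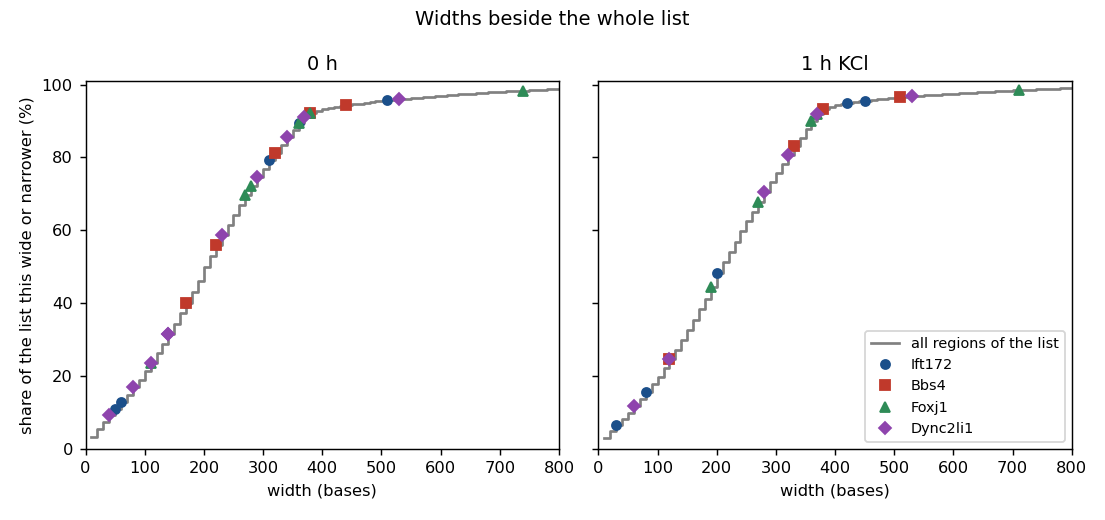
The grey curve gives the share of all listed regions (%) that are a given width in bases or narrower, for 0 h on the left and 1 h in KCl on the right, and each marker is a region of the 4 windows on that curve. At 0 h 12 of 27 markers and at 1 h 11 of 20 lie at 300 bases or more, and the Foxj1 region of 740 and 710 bases lies farthest to the right.

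Where a region was listed at both times, its position hardly differed. In the 14 shared regions with 2 centres in each list, the mean centre at 1 h lay a median of 5 bases from that at 0 h, and at most 15 bases away, beside a median of 5 bases in the whole list. The 2 centres of a region lay a median of 10 bases apart at either time, as in the whole lists.

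Widths at 1 h were compared with those at 0 h for the 18 shared regions. Of these, 10 were narrower at 1 h (55.6%, interval 30.8% to 78.5%, beside 70.9% of all shared 0 h regions), 3 were wider (16.7%, beside 20.5%) and 5 had the same width (27.8%, interval 9.69% to 53.5%, beside 8.58%). The 1 h width was within 10% of the 0 h width in 10 of the 18, beside 38.8%. The limit of 10% was set after the widths were seen. These 18 regions had a median 0 h width of 350 bases, beside 260 bases for all shared 0 h regions. Neither the shares nor the ratios were compared at equal width. The median ratio of the 1 h width to the 0 h width was 0.970, from 0.261 for the Dync2li1 region at 85063610 to 1.17 for the right Ift172 region, beside a median of 0.900 in the whole list. For the widest region of each window the ratio was 0.959 (Foxj1), 0.882 (Ift172), 1.00 (Dync2li1) and 1.16 (Bbs4). The ratios stand on both sides of 1, and without a width per library no test was made of them.

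In each shared region that held fewer centres at 1 h, the column without one was the second. Of the 17 regions with 2 centres at 0 h that were met, 3 had a single centre at 1 h (17.6%, beside 28.2% in the whole list), 1 each in the Bbs4, Foxj1 and Dync2li1 windows, and all 3 had it in the first column, beside 83.9% in the whole list. At 0 h, single centres of the windows stood in the first column in 2 of 7 regions, beside 74.4% of such regions in the whole list, and at 1 h in 5 of 6, beside 86.5%. The second 1 h column was the shortest of the 4 genome-wide, with 74386 centres against 114659 in the first. The columns name no library, so the second column at 0 h need not match the second at 1 h.

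Centres per column gave the one value with replicates. The 4 windows held 22 and 25 centres in the 2 columns at 0 h and 19 and 15 at 1 h. Both 0 h columns thus exceeded both 1 h columns, with means of 23.5 ± 2.12 and 17.0 ± 2.83 (SD, n = 2 columns) and a ratio of 1.38. The two-sided exact permutation test gave p = 0.333, the smallest that 2 columns against 2 allow, so the threshold of 0.05 could not be reached. Over the whole lists the ratio was 1.48, and there too both 0 h columns exceeded both 1 h columns. The labels do not tell separate cultures from repeat libraries of 1 culture, so the spread behind this p may be technical, and the libraries' depth is unknown.

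**Figure D4:**
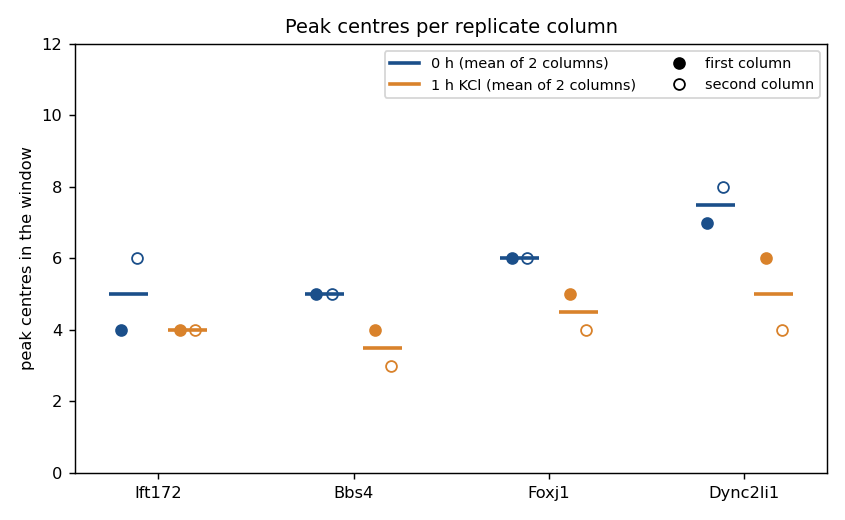
Number of peak centres (y axis) in each window for the first column (filled) and second column (open) at 0 h (blue) and 1 h in KCl (orange); bars mark the mean of the 2 columns. In the Bbs4, Foxj1 and Dync2li1 windows both 0 h columns lie above both 1 h columns, while in the Ift172 window the first 0 h column, with 4 centres, equals both 1 h columns.

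By window, the Foxj1 columns held 6 and 6 centres at 0 h and 5 and 4 at 1 h. The Ift172 columns held 4 and 6 against 4 and 4. The Dync2li1 columns held 7 and 8 against 6 and 4, and the Bbs4 columns 5 and 5 against 4 and 3. The groups overlapped only for Ift172, and differences of 1 to 4 centres carry little weight at these numbers.

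Each window held more regions than the median stretch of its length, most clearly those of Foxj1 and Dync2li1. Tiles of 70 kb on chromosomes 1 to 19 held a median of 4 regions at 0 h (quartiles 2 and 7) and 3 at 1 h (quartiles 1 and 5). As many regions as in the Dync2li1 window, or more, were held by 9.88% of such tiles at 0 h and 19.99% at 1 h. For the Ift172 window these shares were 37.9% and 30.0%, and for the Bbs4 window 48.0% and 42.4%. Tiles of 40 kb held a median of 2 regions at either time, and as many as the Foxj1 window were held by 12.0% at 0 h and 8.71% at 1 h. The tiles include stretches without genes, and the part of gene density in this was not tested.

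In the WT list, chromosomes 5, 9, 11 and 17 held 2, 2, 1 and 2 regions, and the nearest to a window lay 13.2 Mb from that of Bbs4. The 4 windows therefore gave no WT region beside any of the 47 RFX-DN regions. With 43 regions in the whole WT list, absence from 250 kb says little about these genes.

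The windows' bounds decided which neighbours were counted. In the RefSeq annotation of GRCm38.p6, Foxj1 stands between Exoc7 and Rnf157, Ift172 between Krtcap3 and Fndc4, Dync2li1 between Plekhh2 and Abcg5, and Bbs4 between Adpgk and Arih1. No mm9 gene positions were used, so a region is assigned to a window and not to a promoter or to 1 gene. Just outside, the nearest 0 h region to the Ift172 window lay 1.46 kb beyond its right edge (360 bases, 2 centres), and the outermost inside lay 3.05 kb from the left edge. For Dync2li1 a region of 300 bases with 2 centres, with identical bounds at both times, lay 0.74 kb beyond the left edge, and the outermost inside was 2.38 kb from the right edge. For Bbs4 a region of 200 bases at 0 h and 130 bases at 1 h lay 1.71 and 1.73 kb beyond the left edge, and the outermost inside was 11.48 kb from the right edge. For Foxj1 the nearest outside lay 15.64 kb away at 0 h and the outermost inside 1.36 kb from the left edge.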

How the data were processed

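The 3 region lists (RFX-DN at 0 h, RFX-DN at 1 h, WT) were each deposited once for 2 libraries. Per the file headers they hold a chromosome, a start, an end and columns c1 and c2. From the values, each of c1 and c2 is either -1, taken as no centre, or lies within the region's bounds, and they were read as the peak centres of 2 replicates. Bowtie and mm9 are named in the submitters' processing notes. The peak caller, its threshold, the way the libraries were combined and whether starts count from 0 or 1 were not given in the sources used here. The 2 input libraries and the 52 reporter and plasmid samples were not analysed here.

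Width is end minus start. Regions counted as met when they overlapped by at least 1 base, and the widest overlapping region was the counterpart. Shares of regions are set beside those over the whole list. Columns were compared with a two-sided exact permutation test, and shares have 95% exact Clopper-Pearson intervals. By rule, regions named were those with 2 centres in either list and the widest of each window. Regions named with a single centre at both times, or listed at 1 time only with a single centre, were chosen after their values were seen. The members, windows and gene list were chosen with earlier results of these data known. Overlap and motif code was tested on simulated data. Python 3.11.15, pandas 2.3.3 and scipy 1.17.1 were used.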

Additional observations from a re-analysis of the deposited data

How the results depend on the processing

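The counts of regions, the shares met, the share with 2 centres and the ratio of centres were recomputed with the alternatives named here. With regions of 2 centres only, 85.0% of 20 regions at 0 h were met at 1 h and 100% of 14 regions at 1 h were met at 0 h, beside 84.9% and 99.6% over the whole lists. Without 1 column, the windows held 22 to 25 regions at 0 h and 15 to 19 at 1 h. The share of 0 h regions met was 51.9% to 66.7% and that of 1 h regions 85.0% to 90.0%, lowest without the first column of the other list in both cases, where the whole lists gave 42.0% and 76.4%. The ratio of centres was 1.24 to 1.57 with 1 column left out, beside 1.22 to 1.87 over the whole lists. Windows lengthened by 10 kb at either end held 32 and 23 regions, and shortened ones 22 and 15. Overlap of at least 50% of both regions gave 63.0% of 0 h regions met and 85.0% of 1 h regions, beside 54.2% and 76.8% over the whole lists. At the overlap of 50%, and without the first column of the other list, the windows' shares lay above those of the lists. The lists' values stood inside the windows' intervals (42.4% to 80.6% and 62.1% to 96.8% for the overlap of 50%, 31.9% to 71.3% and 62.1% to 96.8% without the first column). Without the second column of the other list, the shares were 66.7% at 0 h and 90.0% at 1 h, beside 62.1% and 91.2%. With centres within 250 bases counted as met, they were 66.7% and 90.0%, beside 65.6% and 93.2%. Each of the 4 widest regions met only 1 region, so summing the widths of all regions met could not change their ratios. With the looser half-site GTNNCC, 2 of the 2 promoters matched instead of 1, as did 89.3% of all genes. No paired analysis was possible because neither column of centres can be tied to a numbered library. The libraries' depth is unknown, which leaves the absence of a region from a list without a detection limit.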
